A study of Mus musculus with 12 samples.

Results

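The solute carrier (Slc) genes are a gene class defined by name: each encodes, with few exceptions, a membrane protein that carries a small molecule or ion across the cell surface or an organelle membrane. Of 370 genes on the array with a symbol starting with Slc, 176 had a probe with a detection p-value under 0.05 on at least 3 of the 12 arrays, and these 176 genes are described here, among 10211 genes of all kinds that passed the same filter. The detection p-values, taken over all 12 arrays without regard to group, chose the genes, so being detected is a description and not a finding. The cells were OP9, an established stromal line, labelled as MSCs (mesenchymal stromal cells) from newborn calvaria (skull bone) of B6C3F1 op/op mice. The op/op mutation, which removes functional macrophage colony-stimulating factor, is carried by every group. Gene expression was compared between vehicle, labelled 0 h, and imatinib, an inhibitor of the BCR-ABL, KIT and PDGF receptor kinases, at 32, 64 and 96 h, with 3 arrays in each of the 4 groups. All arrays come from 1 cell line, and the drug dose is not given in the sources used here. Since vehicle is labelled 0 h, drug and time in culture cannot be told apart.

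Solute carriers work by several means: facilitated passage down a gradient, exchange of one substrate for another, and cotransport driven by sodium or proton gradients that the ATP-driven pumps maintain. Families differ in substrate, so that amino acids, sugars, lactate, inorganic ions, metals, vitamins, nucleosides and mitochondrial metabolites each have carriers of their own. Stromal cells are known to supply amino acids and other metabolites to neighbouring cells through such carriers. An intensity on an Illumina array reports messenger RNA, not transport, and bulk RNA cannot tell fewer cells of a type from less RNA per cell.

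The arrays were alike in depth of detection. Each array detected 16162 to 17332 of 45281 probes, and 145 to 162 of the 176 Slc genes. The arrays carry 2 array labels: vehicle and 96 h share label 1, and 32 h and 64 h share label 2. Comparisons of 32 h or 64 h with vehicle therefore cross the labels, and label and group cannot be told apart there. A principal component analysis of the Slc genes placed 39.9% of the variance on a first component that ran from vehicle (-3.61 to -3.41) through 32 h (-0.644 to 0.0406) and 64 h (1.28 to 1.64) to 96 h (2.11 to 2.49). The second component, with 11.4% of the variance, separated the 2 array labels. Over all probes, the third replicates of 32 h and 64 h stood apart from the other arrays on the third component, at -20.35 and 20.19. Calls at 32 h and 64 h that were lost without both of these arrays are named below.

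Stromal markers were detected throughout, with shifts between groups. Of 12 with a probe, 10 were measured, 2 rose and 3 fell at 96 h (Vim at -0.87 and Cxcl12 at 2.18 among them). The log2 fold changes of the 10 ran from -1.351 to 2.177, with a median of 0.128. Their summed linear intensity was 21900 to 23860 in vehicle and 35350 to 35970 at 96 h. A linear sum weighs bright genes most, so it does not show that the markers rose as a set. Thy1 and Nt5e were detected on 1 array at most. Of 7 adipocyte markers with a probe, 4 were measured and 3 rose at 96 h, and their sum was 6058 to 6515 in vehicle. At 32 h it was 9150 to 9994, at 64 h 13560 to 15140, and 96 h had 14380 to 15550. Fabp4 and Plin1 were detected on 2 arrays and Cidec on 1. Cd36, among the 3 that rose, was detected on 0 vehicle arrays. All 5 osteoblast markers with a probe were measured: Sp7 and Omd rose (1.11 and 1.37), Bglap2 fell (-0.49), and the sum was 483.4 to 511.9 in vehicle and 556.7 to 631.7 at 96 h. Of muscle markers, Acta1 rose (1.27, adjusted p = 0.00359, detected on 1 of 3 vehicle arrays), Des was detected on 12 arrays, Myog on 1 and Ckm on 0, and the sum of Acta1 and Des was 183.7 to 248.3 in vehicle and 244.8 to 261 at 96 h. Of epithelial markers, Krt8 was detected on 12 arrays, Cdh1 and Cldn7 on 6 each, Krt18 on 1 and Epcam on 0; the sum of the 3 measured was 79.68 to 89.12 in vehicle and 103.8 to 108.5 at 96 h, with no member past the test. Of erythroid markers, Epor was detected on 8 arrays, Klf1 and Hbb-bt on 3 each and Alas2 on 0. Of endothelial markers, Pecam1 and Kdr were detected on 3 arrays each, Cdh5 on 1, and Tie1 and Tek on 0. Of B-cell markers, Ms4a1 was detected on 4 arrays and Pax5 and Cd79b on 0. Of 6 myeloid markers with a probe, 4 were measured: Lyz2 rose (1.93) and Cd14 fell (-0.96), Csf1r and Adgre1 did not pass the test, the sum was 164.6 to 210.9 in vehicle and 296.2 to 346.1 at 96 h, and Ptprc and Itgam were detected on 0 arrays. Of all genes tested, 14.9% rose or fell at 96 h. The part of the stromal, adipocyte, osteoblast, muscle, epithelial and myeloid marker shifts in the Slc results that follow was not tested.

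Most of the class was detected on every array or on none. Of the 176 genes, 125 were detected on all 12 arrays, while 126 of the other Slc genes with a probe were detected on none. Just inside the threshold, 8 genes were detected on exactly 3 arrays, among them the glutamate transporter Slc1a2, the glutamine transporter Slc38a1 and the dopamine transporter Slc6a3. Just outside, 24 genes were detected on exactly 2 arrays, among them the zinc importers Slc39a8 and Slc39a14. No member was detected in the arrays of 1 group alone. The glutamine exchanger Slc1a5 and the phosphate transporter Slc20a2 were detected on 0 arrays, and the insulin-responsive glucose transporter Slc2a4 and the lactate transporter Slc16a1 on 1 array each.

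The proximal promoters of 3 genes are shown. Slc24a3 rose most, and Slco2a1 fell in both comparisons made within an array label. Slc30a1 is a textbook zinc-responsive gene, whose call at 96 h was lost under 5 of 23 alternatives. Each line gives the 250 bases before the start in RefSeq on GRCm38.p6, plus strand. Capitals mark matches on either strand to GC boxes (GGGCGG) in Slc24a3, to a TATA box (TATAAA) and a GC box in Slco2a1, and to the core of the metal response element (TGCNCNC) in Slc30a1.
Slc24a3: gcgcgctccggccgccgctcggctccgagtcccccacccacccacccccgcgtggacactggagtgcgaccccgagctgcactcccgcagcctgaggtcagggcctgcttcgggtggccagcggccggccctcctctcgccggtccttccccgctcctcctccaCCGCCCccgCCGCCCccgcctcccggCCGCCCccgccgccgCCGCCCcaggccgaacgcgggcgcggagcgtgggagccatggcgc
Slco2a1: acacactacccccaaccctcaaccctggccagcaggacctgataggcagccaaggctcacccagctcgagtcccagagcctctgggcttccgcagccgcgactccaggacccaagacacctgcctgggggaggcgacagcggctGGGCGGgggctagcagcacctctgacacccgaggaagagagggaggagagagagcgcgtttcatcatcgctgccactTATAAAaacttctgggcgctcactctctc
Slc30a1: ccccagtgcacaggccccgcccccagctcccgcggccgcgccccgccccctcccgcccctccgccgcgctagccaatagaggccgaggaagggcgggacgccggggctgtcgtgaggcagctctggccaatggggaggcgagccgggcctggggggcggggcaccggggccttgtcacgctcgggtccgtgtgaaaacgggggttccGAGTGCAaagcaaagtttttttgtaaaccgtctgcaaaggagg
The Slc24a3 window lies at chr2:145167525-145167774 and is the first of 2 entries for that gene, the Slco2a1 window at chr9:103008237-103008486 and the Slc30a1 window at chr1:191906531-191906780. The Slc24a3 window held 4 GC boxes and 0 TATA boxes, and 1 metal response element core at 173 bases that is not put in capitals. The Slco2a1 window held a TATA box 29 bases before the start and a GC box at 106 bases. The Slc30a1 window held 1 metal response element core, 43 bases before the start, and 5 GC boxes not put in capitals. These letters are common: the metal core matched 44.4% of the 32851 promoters in the table, the GC box 32.7% and the TATA box 12.4%. Among the 143 Slc genes with an entry, 61.1% of promoters held a GC box and 7.89% a TATA box. The shares over all 32851 promoters were not limited to genes detected in these cells. No share was computed for the other genes tested, so a difference cannot be read as particular to Slc genes. A match describes letters only and shows neither binding nor a cause.

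At 96 h of imatinib against vehicle, which share array label 1, 21 Slc genes rose and 12 fell, and 143 did not pass the test. "Rose" and "fell" mean a limma adjusted p under 0.05 over all kept probes, two-sided. The called share of Slc genes was 18.8%, beside 14.9% of all genes tested (7.51% higher and 7.37% lower), so the class as a whole was near the background. The median log2 fold change was 0.0266 for Slc genes and 0.00207 for all genes. By their fitted values, 3 Slc genes detected in vehicle rose at least 2-fold (Slc24a3, Slc16a6 and Slc8a1) and 3 fell at least 2-fold (Slc4a8, Slco2a1 and Slc6a9). Of the 33 calls, 15 held under every alternative run; the other 18 were lost when some single array was left out. Without replicate 2 of 96 h, 11 genes rose and 7 fell. Without replicate 2 of vehicle, 13 rose and 6 fell, and without replicate 1 of either group 6 fell.

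The size of many of these changes depended on the background step. With no background correction, which compresses the differences of dim genes, 18 of the 33 called genes moved by over 1.5 times and 2 of them lost their call, Slc30a1 (0.17) and Slc36a1 (0.19). Among those that rose, Slc16a6 then stood at 0.57, Slc1a3 at 0.38, Slc39a1 at 0.37, Slc7a6 at 0.35, Slc13a4 at 0.34, Slc22a5 and Slc2a13 at 0.30, Slc46a3 at 0.24 and Slc9a3r1 at 0.23. Among those that fell, Slc6a9 stood at -0.63, Slc4a8 at -0.505, Slc25a37 at -0.46, Slco3a1 at -0.33, Slc27a3 at -0.29 and Slc25a13 and Slc25a36 at -0.26. With an offset of 50, 9 of the 33 moved by over 1.5 times, each toward 0 and with the call kept, among them Slc16a6 to 0.98, Slc4a8 to -0.86, Slc2a13 to 0.53 and Slc13a4 to 0.52. With the probes of a gene averaged, 7 moved so far: Slc8a1 to 0.73, Slc4a8 to -0.77, Slc22a5 to 0.36 and Slc11a1 to -0.66 with their calls, and Slc44a2 to 0.22, Slc38a2 to 0.17 and Slc25a36 to -0.17 without.

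**Figure D1:**
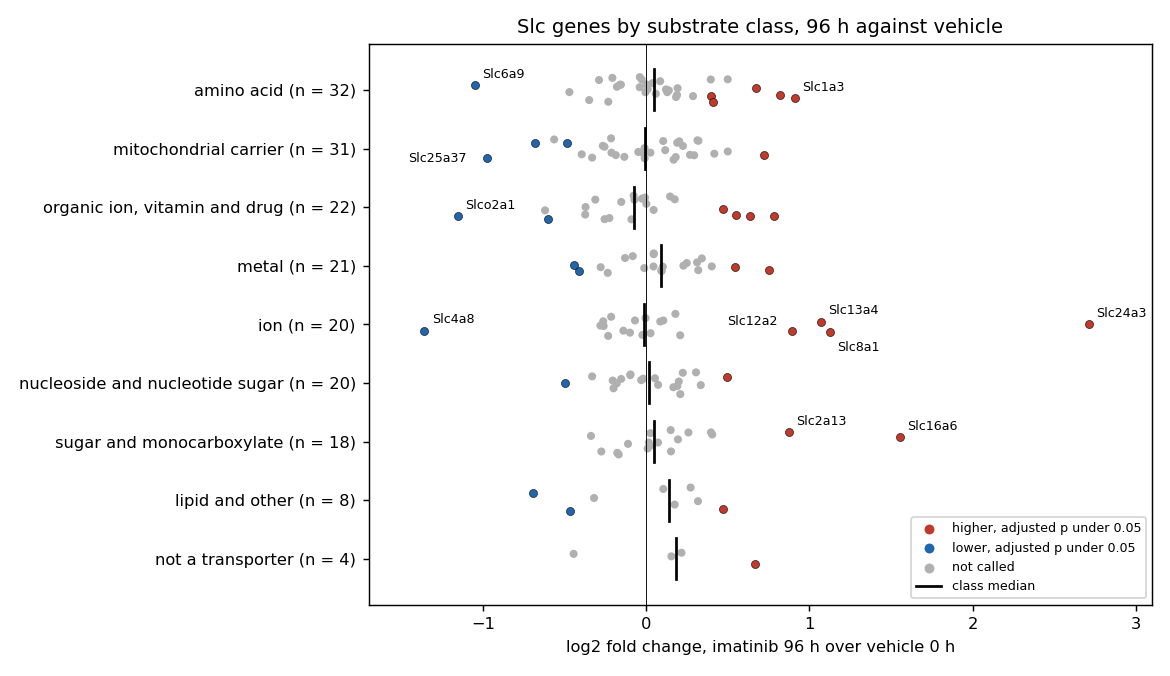
Log2 fold change of each of the 176 Slc genes at 96 h of imatinib against vehicle, by substrate class; the black bar is the class median, red and blue points passed an adjusted p under 0.05, and vertical scatter within a class has no meaning. Class medians lie near 0, and the large changes are single genes, with Slc24a3 at 2.71.

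Carriers of inorganic ions held the largest single changes. Of 64 with a probe, 20 were measured, of which 4 rose and 1 fell. That is 25%, beside 14.9% of all genes, and the class median was -0.0133. Slc24a3 encodes a potassium-dependent sodium-calcium exchanger that extrudes calcium. Its log2 intensity was 7.44, 7.85 and 7.82 on the vehicle arrays, 9.70, 9.78 and 9.45 at 32 h, 10.21, 10.26 and 10.45 at 64 h and 10.46, 10.40 and 10.38 at 96 h. Every imatinib array lay above every vehicle array, with most of the difference present at 32 h. At 96 h the log2 fold change was 2.71 ± 0.14 (SE; 6.55-fold, adjusted p = 3.77e-09).

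Slc8a1, the sodium-calcium exchanger of the plasma membrane, moved the same way. It measured 7.58, 7.58 and 7.34 in vehicle, 8.22, 8.14 and 7.95 at 32 h, 8.42, 8.32 and 8.49 at 64 h and 8.43, 8.76 and 8.68 at 96 h. All imatinib arrays again lay above vehicle, and the log2 fold change at 96 h was 1.12 ± 0.13 (adjusted p = 2.23e-05). A second probe of Slc8a1 gave 0.34 (adjusted p = 0.285), so the probes of this gene differ in size and call.

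Slc12a2, the sodium-potassium-chloride cotransporter that loads cells with chloride, measured a mean of 9.52 ± 0.07 (SD, n = 3) in vehicle, 9.90 ± 0.14 at 32 h, and on single arrays 10.33, 10.25 and 10.25 at 64 h and 10.43, 10.38 and 10.42 at 96 h. It stepped up with each labelled time and rose by 0.89 ± 0.11 at 96 h (adjusted p = 5.01e-05). Slc13a4, a sodium-sulfate cotransporter, was detected on 0 vehicle arrays, 1 array at 32 h and all 3 at 64 h and 96 h. Slc13a4 passed the detection filter through imatinib arrays alone, so its call is not independent of that filter. The fitted log2 fold change of 1.07 (adjusted p = 0.000697) uses vehicle values below detection. At 96 h its log2 intensity was 5.18, 5.73 and 5.70, at least 1.64-fold above the lowest level detected on the vehicle arrays. Such bounds compare a detected group with the lowest signal detected on each array of the other.

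Slc4a8, a sodium-driven exchanger of chloride and bicarbonate, went down. It measured 6.48, 6.44 and 6.85 in vehicle, 5.72, 5.91 and 6.28 at 32 h, 5.63, 5.30 and 5.96 at 64 h and 5.48, 5.23 and 4.99 at 96 h. Every imatinib array lay below every vehicle array, and the log2 fold change at 96 h was -1.36 ± 0.19 (adjusted p = 0.000174). Its second probe gave -0.19 (adjusted p = 0.608). The phosphate transporter Slc20a1 did not pass the test (-0.07 ± 0.20), and its sign turned under 2 of the alternatives. Of 8 measured genes for sodium, potassium and calcium pumps and their subunits, 1 rose and 1 fell. Atp2a2, the calcium pump of the endoplasmic reticulum, rose by 0.48 ± 0.13 (adjusted p = 0.0226). Fxyd5, a regulatory subunit of the sodium pump, gave -1.73 ± 0.14 (adjusted p = 4.66e-07). No catalytic subunit of the sodium pump was among the listed genes with a probe. The list had 25% called, beside 14.9% of all genes, and a median of 0.125, beside 0.00207 for all genes.

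Among carriers of sugars and monocarboxylates, 18 of 46 were measured, 2 rose and 0 fell (1 was lower at an unadjusted p under 0.05). The called share was 11.1%, beside 14.9% of all genes, and the class median was 0.0492. Slc16a6 belongs to the monocarboxylate family and is described in zebrafish as an exporter of ketone bodies from liver. It measured 5.27, 5.10 and 4.94 in vehicle, 5.83, 5.80 and 5.62 at 32 h, 6.14, 6.77 and 6.79 at 64 h and 6.63, 6.51 and 6.83 at 96 h. No imatinib array overlapped vehicle, and the log2 fold change at 96 h was 1.55 ± 0.17 (adjusted p = 1.27e-05).

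Slc2a13, a proton-coupled transporter of myo-inositol, measured 5.54, 5.01 and 5.35 in vehicle and 6.04, 6.22 and 6.25 at 96 h. It rose by 0.87 ± 0.15 (adjusted p = 0.00115), with 32 h overlapping vehicle. The main glucose transporter Slc2a1 measured a mean of 9.07 ± 0.09 (SD, n = 3) in vehicle and 9.15 ± 0.12 at 96 h. The groups overlapped, and the difference was 0.07 ± 0.12 (adjusted p = 0.766). The lactate exporter Slc16a3 gave 0.26 ± 0.18 and the orphan Slc16a4 -0.34 ± 0.13, neither past the test.

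A list of glucose and lactate enzymes, which also holds the chaperone Emb and the regulator Txnip, was read beside the carriers. Of the 14 measured genes of that list, 1 rose and 4 fell (35.7%, beside 14.9% of all genes), with a median of -0.229. Emb, the chaperone that brings monocarboxylate carriers to the surface, rose by 0.47 ± 0.13 (adjusted p = 0.0215). The glycolytic enzymes Pkm, Aldoa and Pgk1 gave -0.96, -0.46 and -0.40, and Txnip, which restrains glucose uptake, gave -0.63. Those 4 all passed the test.

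For amino acid carriers, 32 of 65 were measured, 5 rose and 1 fell (18.8%, beside 14.9% of all genes), and the class median was 0.0483. The class follows family numbers, so it also holds the dopamine transporter Slc6a3. Slc1a3, the sodium-coupled glutamate and aspartate transporter, measured 5.73, 5.60 and 5.80 in vehicle, 7.10, 7.07 and 6.92 at 32 h, 6.90, 6.73 and 7.15 at 64 h and 6.70, 6.70 and 6.47 at 96 h. All imatinib arrays lay above vehicle, and the 32 h arrays lay above the 96 h arrays. The log2 fold change was 0.91 ± 0.13 at 96 h (adjusted p = 0.000201).

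Slc7a6 encodes the light chain of an exchanger of cationic for neutral amino acids. It measured 5.69, 5.78 and 6.10 in vehicle and 6.80, 6.55 and 6.66 at 96 h, a rise of 0.82 ± 0.18 (adjusted p = 0.00552). Its heavy chain partner, Slc3a2, did not pass the test (0.19 ± 0.20). The other 3 that rose were the lysosomal proton-coupled carrier Slc36a1 (0.67 ± 0.19), the taurine transporter Slc6a6 (0.41 ± 0.11) and the neutral amino acid transporter Slc38a2 (0.39 ± 0.12, measuring 11.07, 11.10 and 11.05 in vehicle and 11.58, 11.52 and 11.30 at 96 h). Without replicate 1 of 96 h, Slc36a1 stood at 0.43. These 3 calls were lost when some single array was left out, with adjusted p as high as 0.351 for Slc38a2, there with the mean of its probes.

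Slc6a9, the glycine transporter, was the one amino acid carrier that fell. It measured 7.78, 7.86 and 7.74 in vehicle, 7.27, 7.47 and 7.73 at 32 h, 7.08, 7.17 and 6.55 at 64 h and 6.73, 6.93 and 6.58 at 96 h. The 96 h arrays lay below every vehicle array, while 64 h and 96 h overlapped, and the log2 fold change at 96 h was -1.05 ± 0.17 (adjusted p = 0.000499). Slc1a4, which carries serine and alanine, gave -0.47 ± 0.16 (adjusted p = 0.0611), the arginine transporter Slc7a1 -0.35, the cystine-glutamate exchanger Slc7a11 0.13, Slc38a1 0.12 and Slc38a4 -0.29, none past the test. Slc38a1 turned sign without replicate 1 of 96 h.

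Of 20 measured enzymes and sensors of amino acid metabolism, 1 rose and 7 fell (40%, beside 14.9% of all genes), with a median of -0.223. Glul, which makes glutamine from glutamate, rose by 0.79 ± 0.18 (adjusted p = 0.00716). Bcat1, which starts breakdown of branched-chain amino acids, gave -1.66 ± 0.14 (adjusted p = 6.67e-07), the arginine sensor Castor1 -0.82 ± 0.12 (adjusted p = 0.000299) and the alanine aminotransferase Gpt2 -0.77 ± 0.14 (adjusted p = 0.00128). The others that fell were Aldh18a1, Glud1, Shmt1 and Psat1, between -0.64 and -0.45.

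Carriers of organic ions, vitamins and drugs had 22 of 64 genes measured, with 4 higher and 2 lower. That is 27.3%, beside 14.9% of all genes, and the median was -0.0744. Slco2a1, the transporter that takes up prostaglandins for breakdown, measured 10.85, 10.94 and 10.76 in vehicle, 10.48, 10.57 and 10.61 at 32 h, 10.01, 9.93 and 10.02 at 64 h and 9.69, 9.73 and 9.66 at 96 h. The 4 groups stepped down without overlap. The log2 fold change at 96 h was -1.16 ± 0.11 (adjusted p = 2.28e-06), and the other 3 probes of the gene fell too, with -1.66, -1.52 and -0.71. Its relative Slco3a1 gave -0.60 ± 0.18 (adjusted p = 0.0335).

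Slc18b1, a vesicular polyamine transporter, measured 8.54, 8.21 and 8.39 in vehicle and 9.08, 9.15 and 9.26 at 96 h, a rise of 0.78 ± 0.13 (adjusted p = 0.000491). The lysosomal carrier Slc46a3 rose by 0.64 ± 0.15, the carnitine transporter Slc22a5 by 0.55 ± 0.14 and Slc10a3, of the bile acid transporter family, by 0.47 ± 0.12. The calls for these 3 and for Slco3a1 were lost when some single array was left out. Slc22a4, the ergothioneine transporter, gave -0.37 ± 0.28 and did not pass the test. Among genes of the ABC class, not all of which encode transporters, 2 of 22 rose (Abca3 by 0.48 and Abcb6 by 0.57). In that list 0 fell (3 were lower at an unadjusted p under 0.05), and 9.09% were called, beside 14.9% of all genes.

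Metal carriers had 21 of 31 genes measured, with 2 higher and 2 lower (19%, beside 14.9% of all genes) and a median of 0.0923. Slc30a1, the zinc exporter whose promoter is printed above, measured 5.12, 5.62 and 5.23 in vehicle, 5.68, 5.92 and 5.79 at 32 h, 5.66, 6.05 and 5.75 at 64 h and 5.73, 5.84 and 6.04 at 96 h. The imatinib arrays lay just above the highest vehicle array, and the rise at 96 h was 0.54 ± 0.15 (adjusted p = 0.0282). Mt1, the zinc-binding metallothionein that zinc also induces, went the other way, at -0.53 ± 0.14 (adjusted p = 0.0181).

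The zinc importer Slc39a1 measured 6.07, 6.07 and 6.33 in vehicle and 6.43, 7.18 and 7.12 at 96 h, a rise of 0.75 ± 0.20 (adjusted p = 0.0192). Another importer, Slc39a6, gave -0.44 ± 0.12 (adjusted p = 0.0243). Slc11a1, an exporter of iron and manganese from phagosomes best known from macrophages, gave -0.41 ± 0.12 (adjusted p = 0.0384), with its other 3 probes at -0.77, -0.45 and -1.01. Beside it, the summed intensity of the 4 measured of 6 myeloid markers with a probe was 164.6 to 210.9 in vehicle and 296.2 to 346.1 at 96 h, with Lyz2 at 1.93 and Cd14 at -0.96; Ptprc and Itgam were at 0 arrays. The calls for these 4 metal carriers were each lost when some single array was left out.

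The iron importer Slc11a2 (0.34 ± 0.15) and the iron exporter Slc40a1 (0.25 ± 0.16) did not pass the test. Of 18 other genes for iron, zinc and copper, 2 rose and 4 fell (33.3%, beside 14.9% of all genes), with a median of -0.00261. Heph and Cp, the copper oxidases that load exported iron onto transferrin, gave 1.35 ± 0.15 (adjusted p = 1.32e-05) and 0.83 ± 0.15 (adjusted p = 0.00135); Cp was detected on 1 of 3 vehicle arrays. The metalloreductases Steap1, Steap2 and Steap3 fell as Mt1 did, with log2 fold changes of -0.47, -0.47 and -0.68.

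The Slc25 family of mitochondrial carriers had the most measured genes of any single family, with 31 of 46 measured. In it 1 gene was higher and 3 were lower (12.9%, beside 14.9% of all genes), with a median of -0.0091. Slc25a5, the exchanger of ADP for ATP found in most tissues, measured 12.41, 12.35 and 12.33 in vehicle, 12.57, 12.56 and 12.57 at 32 h, 12.98, 12.84 and 12.97 at 64 h and 13.12, 13.03 and 13.11 at 96 h. It stepped up with little spread within groups and rose by 0.72 ± 0.10 (adjusted p = 0.000201). Slc25a4, the form of muscle and heart, gave 0.23 ± 0.14 and did not pass the test.

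Slc25a37, or mitoferrin, imports iron for heme and iron-sulfur clusters. It measured 7.17, 6.86 and 6.95 in vehicle, 6.85, 6.78 and 6.91 at 32 h, 6.54, 6.47 and 6.52 at 64 h and 6.21, 5.83 and 6.02 at 96 h, a log2 fold change of -0.97 ± 0.13 (adjusted p = 7.91e-05). Its second probe fell too, at -0.67. The aspartate-glutamate carrier Slc25a13 gave -0.68 ± 0.20 (adjusted p = 0.0334) and the pyrimidine nucleotide carrier Slc25a36 -0.49 ± 0.14 (adjusted p = 0.032). Both calls were lost without some single array, and 1 of the other 2 probes of Slc25a36 had the opposite sign.

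Heme, choline, fatty acid and acetyl-CoA carriers had 8 of 14 genes measured, with 1 higher and 2 lower (37.5%, beside 14.9% of all genes). Slc48a1, which moves heme out of the lysosome, measured 10.22, 10.38 and 10.76 in vehicle, 9.98, 9.89 and 9.80 at 32 h, 9.73, 9.93 and 10.05 at 64 h and 9.81, 9.77 and 9.69 at 96 h. All imatinib arrays lay below vehicle, with the 3 imatinib groups overlapping, and the log2 fold change at 96 h was -0.69 ± 0.14 (adjusted p = 0.00393). The choline transporter-like Slc44a2 rose by 0.47 ± 0.12, and the acyl-CoA synthetase Slc27a3 gave -0.47 ± 0.12. Both passed the test but lost it without some single array. The other 2 probes of Slc44a2 gave 0.39 (adjusted p = 0.111) and -0.21 (adjusted p = 0.66).

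Nucleoside and nucleotide sugar carriers had 20 of 35 measured, 1 higher and 1 lower (10%, beside 14.9% of all genes), with a median of 0.0179. The lysosomal nucleoside carrier Slc29a3 rose by 0.49 ± 0.15 (adjusted p = 0.042). The surface carrier Slc29a1 gave -0.50 ± 0.15 (adjusted p = 0.0459), and its second probe -0.86 (adjusted p = 0.00112). These calls of Slc29a3 and Slc29a1, each on the probe used for the gene, were lost without some single array. Against vehicle, the second probe of Slc29a1 also gave -0.69 at 32 h (adjusted p = 0.0193) and -1.14 at 64 h (adjusted p = 0.000132). The probe used for Slc29a1 was called at neither of those times, so its probes differ in size and call. The Slc35 genes carry nucleotide sugars into the Golgi and endoplasmic reticulum for glycosylation. Of the 17 measured, limma called 0, beside 14.9% of all genes, with 2 at an unadjusted p under 0.05. Among 4 genes that carry an Slc symbol but encode no transporter, the scaffold protein Slc9a3r1 rose by 0.67 ± 0.19 (adjusted p = 0.0256), a call lost without some single array. Its relative Slc9a3r2 gave -0.44 ± 0.20 and Slc7a6os 0.22 ± 0.15, neither past the test. Ank, a gene of solute carrier type under another symbol, gave -1.62 ± 0.11 (adjusted p = 8.88e-08). It was the 1 of 9 measured genes of that list that passed the test at 96 h (11.1%, beside 14.9% of all genes).

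**Figure D2:**
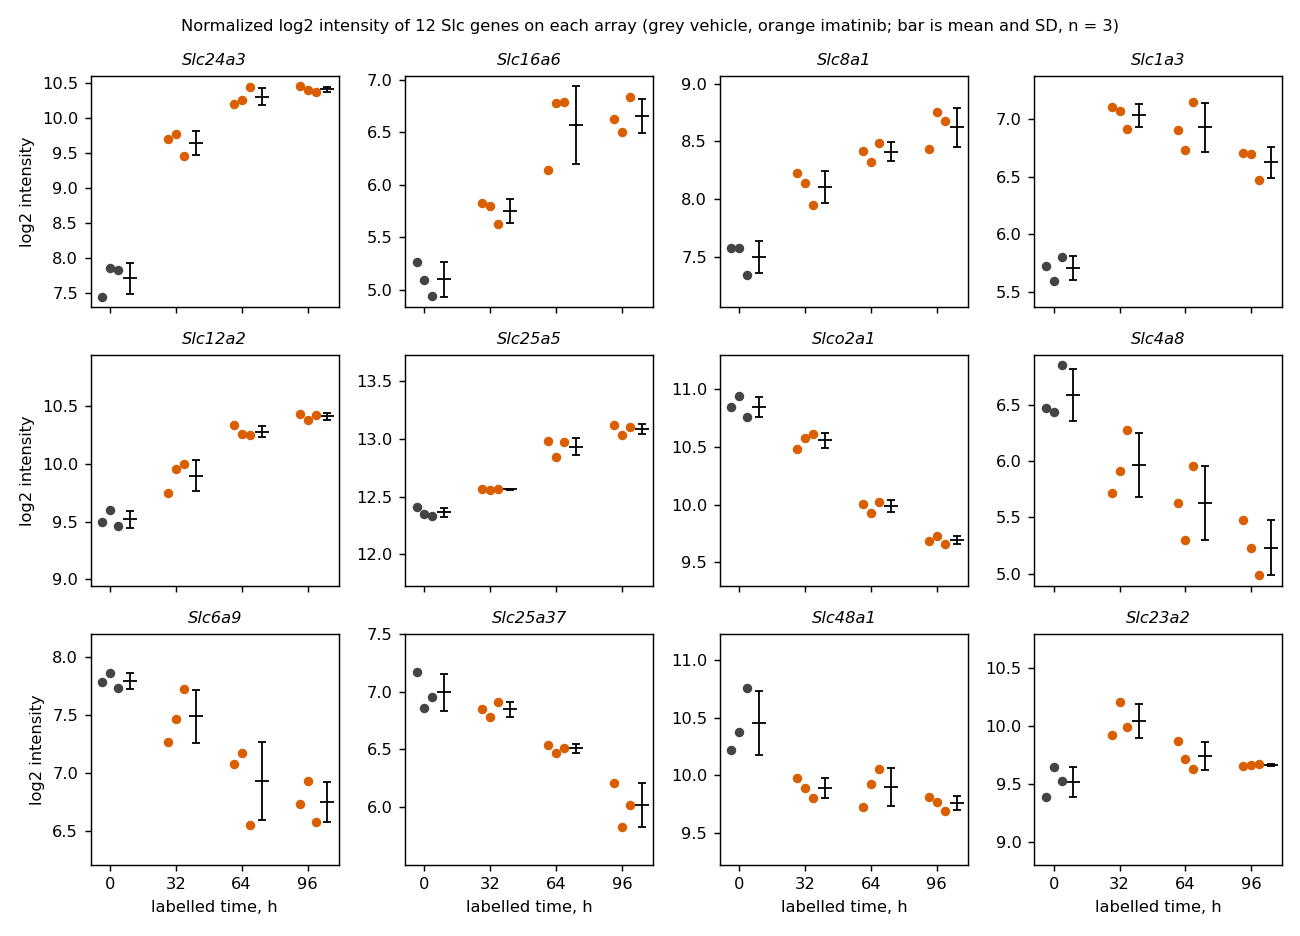
Normalized log2 intensity of 12 Slc genes on each of the 12 arrays by labelled time in hours, grey for vehicle and orange for imatinib, with the mean and SD of 3 arrays beside the points; each panel has its own range. Slc24a3 has most of its change at 32 h, Slco2a1 steps down at each time, and Slc1a3 is highest at 32 h and 64 h.

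Imatinib at 32 h and at 64 h share array label 2. Their group means use none of the arrays of the comparison above. Normalization and the variance estimate used all arrays together, so the calls of these comparisons are not fully independent. Between 32 h and 64 h, 2 Slc genes rose and 1 fell. That is 1.7% of 176, beside 1.23% of all genes (0.656% higher and 0.578% lower). The same 3 genes were called in the same direction at 96 h against vehicle. Slc24a3 rose by 0.66 ± 0.14 (adjusted p = 0.0327) and Slc16a6 by 0.82 ± 0.17 (adjusted p = 0.0317). Slco2a1 fell, with a log2 fold change of -0.57 ± 0.11 (adjusted p = 0.0167), and a second of its 4 probes was called at -0.57. None of the 3 calls held under all alternatives: each was lost without the third replicates of 32 h and 64 h together, and leaving out any single 64 h array or any single 32 h array ended at least 1 of them.

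**Figure D3:**
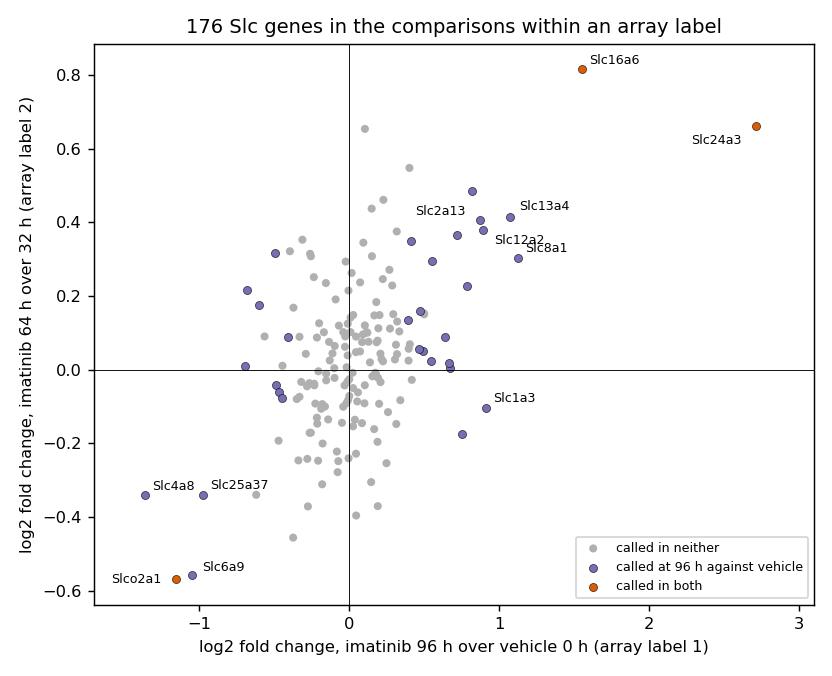
Log2 fold change of the 176 Slc genes at 96 h against vehicle (x) and at 64 h against 32 h (y). The groups compared on x and y share no arrays, but normalization and variance were estimated over all arrays. Slc24a3, Slc16a6 and Slco2a1, in orange, passed an adjusted p under 0.05 in both comparisons. Slc1a3 lies at 0.91 on x and -0.10 on y.

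At 32 h against vehicle, across array labels, 5 Slc genes rose and 1 fell, 3.41% beside 4.16% of all genes (2.09% higher and 2.08% lower). Slc24a3 rose by 1.94 ± 0.14 (adjusted p = 1.82e-06), Slc1a3 by 1.32 ± 0.13 (adjusted p = 4.05e-05), Slc16a6 by 0.65 ± 0.17 (adjusted p = 0.0463) and Slc8a1 by 0.60 ± 0.13 (adjusted p = 0.0163). Slc48a1 fell (-0.56 ± 0.14, adjusted p = 0.0425). All 5 of these were also called at 64 h and 96 h, which share the same vehicle arrays. Slc23a2, the ascorbate transporter, was called at 32 h and at neither later time. It measured 9.39, 9.65 and 9.52 in vehicle, 9.93, 10.21 and 9.99 at 32 h, 9.87, 9.72 and 9.63 at 64 h and 9.66, 9.67 and 9.68 at 96 h, a rise at 32 h of 0.52 ± 0.12 (adjusted p = 0.0259). The calls that held under every alternative run were those of Slc24a3 and Slc1a3. Without the 2 outlying arrays 3 genes rose and 0 fell, and the calls of Slc16a6, Slc23a2 and Slc48a1 were lost.

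At 64 h against vehicle, 15 Slc genes rose and 8 fell, 13.1% beside 12.4% of all genes (6.33% higher and 6.08% lower). Of these 23, 18 were also called at 96 h, with the vehicle arrays in common. Slc24a3 stood at 2.60 ± 0.14 (adjusted p = 1.39e-08), Slc16a6 at 1.46 ± 0.17 (adjusted p = 3.44e-05), Slc1a3 at 1.22 ± 0.13 (adjusted p = 1.92e-05) and Slc8a1 at 0.91 ± 0.13 (adjusted p = 0.00024). Slc4a8 was at -0.96 ± 0.19 (adjusted p = 0.00403), and Slc6a9 and Slco2a1 were both at -0.86. Without the 2 outlying arrays 5 genes fell. The calls of Slc10a3, Slc25a37, Slc30a1, Slc33a1, Slc47a2 and Slc66a1 were lost there. Without replicate 1 of vehicle 4 genes fell.

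The 5 genes called at 64 h and not at 96 h were of several classes. The zinc importer Slc39a10 measured 5.46, 5.11 and 5.28 in vehicle, a mean of 5.57 ± 0.11 (SD, n = 3) at 32 h, 5.87, 6.46 and 6.03 at 64 h and 5.82, 5.51 and 5.72 at 96 h. It was highest at 64 h, by 0.84 ± 0.16 over vehicle (adjusted p = 0.00245), and gave 0.40 ± 0.16 at 96 h (adjusted p = 0.115). Slc33a1, which brings acetyl-CoA into the endoplasmic reticulum, rose by 0.66 ± 0.19 (adjusted p = 0.0321), on arrays reading 5.97, 5.71 and 5.90 at 64 h and 5.72, 5.21 and 4.99 at 96 h. The lysosomal carrier of cationic amino acids Slc66a1 gave -0.46 ± 0.13 (adjusted p = 0.0277) and Slc22a17, a receptor for lipocalin, -0.65 ± 0.20 (adjusted p = 0.0483), the latter with overlapping groups. Slc47a2, an extruder of organic cations, was detected on 2 vehicle arrays, 0 at 32 h, 0 at 64 h and all 3 at 96 h. Its fitted log2 fold change at 64 h was -0.51 (adjusted p = 0.0247), which uses 64 h values below detection. Slc47a2 passed the detection filter through vehicle and 96 h arrays alone, so its call is not independent of that filter. By the bound, it was at least 1.10-fold higher in vehicle than at 64 h. Of these 5 calls, that of Slc39a10 held under every alternative run; the others were lost without some single array. Whether the 64 h and 96 h values of these genes differ was not tested, and those groups carry different array labels.

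**Figure D4:**
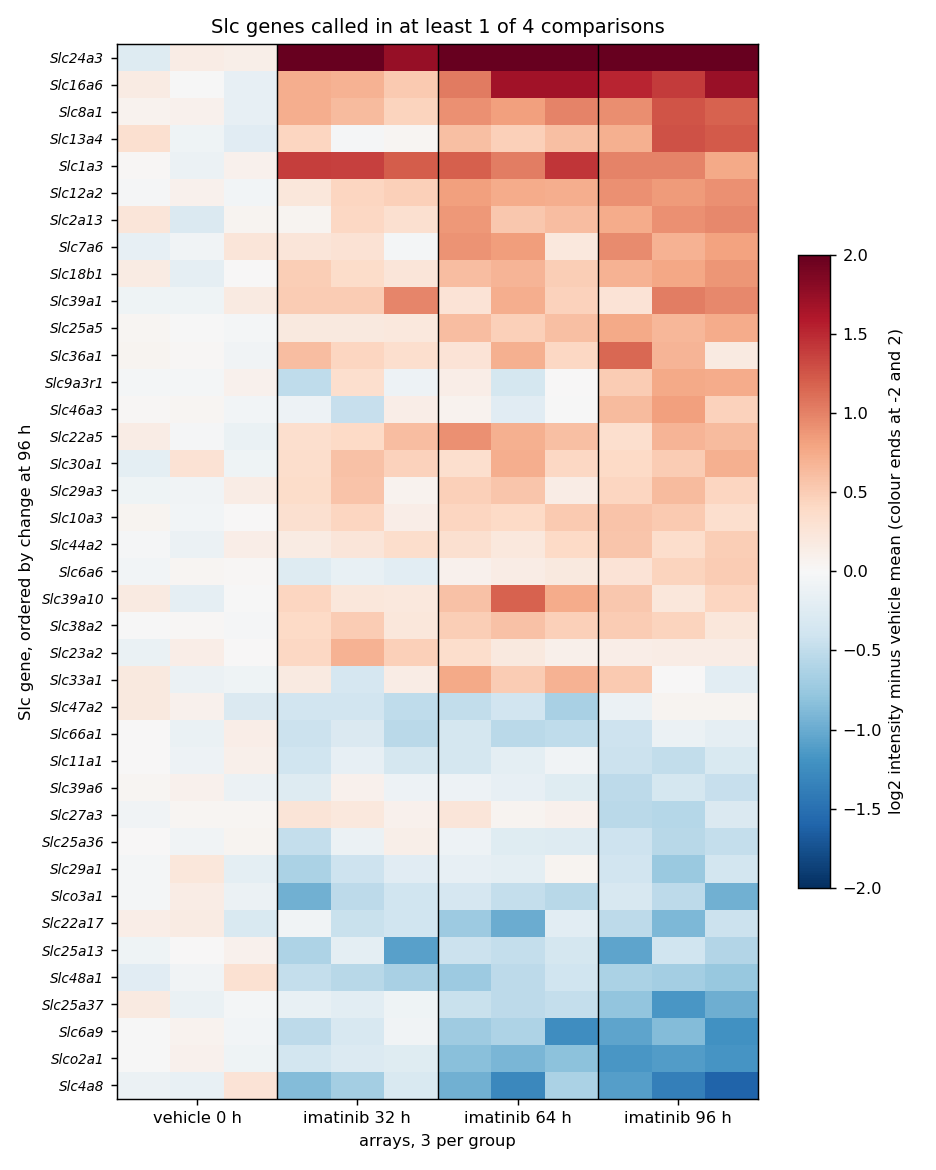
Log2 intensity minus the vehicle mean for the 39 Slc genes called in at least 1 of the 4 comparisons (rows, ordered by the change at 96 h) on the 12 arrays (columns, 3 per group); colours end at -2 and 2, which Slc24a3 passes. Slc1a3 and Slc23a2 are reddest at 32 h, and Slc39a10 and Slc33a1 at 64 h.

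Of the 176 Slc genes, 137 were called in none of the 4 comparisons. The SD within a group had a median of 0.163 on the log2 scale for Slc genes and 0.152 for all genes, and the median SE of the 96 h difference was 0.156 and 0.147. Among 50 Slc genes with more than 1 kept probe, 0 had probes called in opposite directions in any comparison. That count needs 2 called probes in a gene, so it cannot show that probes agree. At 96 h some genes had probes of opposite sign, among them Slc44a2 (0.47 and -0.21), Slc25a36 (-0.49 and 0.25) and Slc11a2 (0.34 and -0.25). Others, such as Slco2a1, had all probes of the same sign.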

How the data were processed

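RNA of OP9 cells was labelled with biotin and hybridised to 12 Illumina BeadChip arrays. Per the file headers, the deposited table without normalization lists a signal intensity per probe on a linear scale. Per the file headers it also lists a detection p-value. A second table holds values the authors normalized; limma is named in the submitters' processing notes, with no version. Log2 of those deposited values differed by at most 0.0193 from the log2 values computed here.

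In R 4.3.3 with limma 3.58.1 and the package data.table in version 1.17.8, neqc corrected background from detection p, added an offset of 16, normalized by quantiles and took log2. Probes with detection p under 0.05 on at least 3 of 12 arrays were kept: 18897, of which 15961 name 1 gene. The annotation gives 1 gene symbol for 34885 of 45281 probes, several for 18 and none for 10378. A gene is its kept probe with the highest mean (10211 genes). A model of 4 group means on all 12 arrays (8 residual degrees of freedom, moderated variances) gave log2 fold changes with SE, with Benjamini-Hochberg adjustment over kept probes and a threshold of 0.05. The labels do not say that the 3 arrays of a group came from separate cultures, so p-values measure the spread between arrays, which may be technical. The number of arrays limits the precision.

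Genes named were the 8 largest changes each way per comparison without overlap, up to 3 per substrate class and gene list by p, and a fixed set of well-known carriers; all other called members, Slc genes near the detection threshold and list members beyond 3 were named after their values were seen. Substrate classes follow Slc family numbers, so a class can hold members with other substrates. The members and lists were chosen with earlier results of these data known. The fit was tested on simulated data. Alternatives are given in the closing section. Promoters were searched and figures drawn in Python 3.11.15 with matplotlib 3.10.9; 143 of 176 members matched a RefSeq promoter entry.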

Additional observations from a re-analysis of the deposited data

How the results depend on the processing

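The 8 counts of called Slc genes and 82 gene results were recomputed under 23 alternatives. Leaving out each array in turn gave 11 to 21 higher and 6 to 13 lower genes at 96 h, 0 to 2 higher and 0 to 1 lower from 32 h to 64 h, 2 to 5 higher and 0 to 1 lower at 32 h, and 11 to 15 higher and 4 to 8 lower at 64 h against vehicle. Other alternatives moved 5 of the 8 counts past 1.5 times. For 64 h against 32 h, genes higher numbered 5 with no background correction, 1 with median scaling, 4 with offset 50, 5 with trended and robust variances, 0 with the replicate block and 0 without both outlying arrays (replicate 3 of 32 h and of 64 h). Genes lower numbered 2 with offset 50, 2 with trended variances and 0 without both arrays. For 32 h against vehicle, genes higher numbered 8 with trended variances and 3 without both arrays. Genes lower numbered 3 with no background correction, 0 with median scaling, 0 with no filter, 2 with the strict filter (every array of some group under a detection p of 0.01), 4 with offset 50, 5 with trended variances, 0 with the replicate block, 4 with probes of a gene averaged and 0 without both arrays. For 64 h against vehicle, genes lower numbered 13 with the mean of probes and 5 without both arrays. The cause of these moves was not tested. The labels do not say that replicate numbers pair the samples. Same-numbered arrays correlated between -0.0218 and 0.0259 in their deviations, which shows no large shared shift but cannot decide whether samples were paired. Of 65 called gene results, 30 were called under every alternative run and 0 turned sign; the uncalled Slc20a1 at 96 h turned to 0.136 with the mean of probes and 0.146 without replicate 2 of vehicle, and Slc38a1 to -0.068 without replicate 1 of 96 h. With single arrays left out, Slc20a1 ranged from -0.261 to 0.146 and Slc38a1 from -0.068 to 0.244. Median scaling shifted the median of all genes by at most 0.0258. Genes near the detection limit have compressed differences.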
